A study of Mus musculus with 6 samples.

Results

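The MHC class II antigen presentation genes were followed as a set of 10 members in granulocyte-macrophage progenitors (GMPs), the bone marrow cells that give rise to neutrophils and monocytes. The members were fixed by name: the classical chains H2-Aa, H2-Ab1 and H2-Eb1, the invariant chain Cd74, the peptide-loading chains H2-DMa, H2-DMb1 and H2-DMb2, the loading inhibitor chains H2-Oa and H2-Ob, and the transactivator Ciita. All 10 were found among the 37620 genes of the deposited table, and all 10 passed the filter for testing, a mean normalized count of at least 10. Ciita, with a mean of 5.98 in the Bap1 knockout group, passed only through the control group.

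The libraries were 3 labelled Bap1 knockout, from mice of genotype Mx1-Cre Bap1 f/f, and 3 labelled control, from Bap1 f/f mice without Cre. They were C57BL/6 littermates aged 65 days. All were given polyI:polyC, at an age of 42 days by the sample labels and earlier by the series' own design text. The sort kept lineage-negative, c-Kit+, Sca1- cells with CD34 and Fc receptor on their surface, a gate that sets aside mature B cells, macrophages and other lineage-positive cells. PolyI:polyC drives Cre through the interferon-responsive Mx1 promoter, which acts in many cell types of the mouse, so its action is not limited to GMPs. Cre was carried by the knockout-labelled group alone. The labels do not say whether each library came from its own mouse, so the p-values measure the spread between these libraries. BAP1 is a nuclear deubiquitinase that removes ubiquitin from histone H2A.

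MHC class II molecules carry peptides from internalized proteins to the cell surface for CD4 T cells. An alpha and a beta chain assemble with the invariant chain, which blocks the peptide groove until endosomal proteases remove it; H2-DM then exchanges the remaining fragment for peptide, and H2-O restrains H2-DM. Dendritic cells, B cells and macrophages carry most class II, and its genes are read when CIITA is recruited by the RFX, CREB and NF-Y factors bound at the X and Y boxes of their promoters. C57BL/6 mice do not express the H2-Ea chain, because of a deletion in its promoter, so H2-Eb1 has no partner there.

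Levels are given as normalized counts, which are gene reads divided by a size factor for each library. Gene reads came to 19464353 to 24085250 in knockout-labelled libraries and 24125905 to 25901725 in control libraries, and 1 read was worth 0.8885 to 1.1419 normalized counts. Bap1 itself had 2671, 3309 and 2968 normalized counts in knockout-labelled libraries, against 1343, 998.5 and 1076 in control libraries (log2 fold change 1.39, SE 0.14, limma adjusted p = 6.07e-05). The direction is opposite to what the labels say. The deposited count covers the gene as a whole and cannot check a deletion of some of its exons, so the groups are called knockout-labelled and control throughout. Of 13 GMP and granule genes 6 were called higher and 2 lower, where 11.8% of all genes tested were called higher and 15.0% lower. Among those called higher were the granule protease gene Ctsg, 1.62-fold (limma adjusted p = 0.00153), and Gfi1, a repressor needed for granulocytes, 1.69-fold (0.00451). Mpo, the myeloperoxidase of granulocyte precursors, is named for its level and not by adjusted p. It ran from 513034 to 758797 in knockout-labelled and from 488643 to 523637 in control libraries and was not called (limma adjusted p = 0.251). The genes of the sort markers did not all move the same way. Kit and Fcgr2b are named as genes of the gate. Kit was higher, at 1525 ± 151.5 in knockout-labelled and 1096 ± 86.1 in control libraries (SD, n = 3 each, limma adjusted p = 0.0214). That call was lost without knockout replicate 3 and without control replicate 1 or 3. Fcgr2b, an Fc receptor gene, was not called (limma adjusted p = 0.346). Both Cd34 and the Fc receptor gene Fcgr3 were lower. Fcgr3 was at 7836 ± 1485 in knockout-labelled and 13250 ± 728.1 in control libraries (SD, n = 3 each; limma adjusted p = 0.00198). Cd34 was at 3963 ± 243.6 and 11499 ± 296.5 (SD, n = 3 each, knockout-labelled and control; limma adjusted p = 5.04e-06).

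The promoters of the members were searched for the X and Y boxes named above. RefSeq promoter sequences (250 bases before to 50 after the start of a gene, GRCm38.p6, all on chromosome 17) were at hand for 7 of the 10 members; H2-Ab1, Cd74 and Ciita had none. They were searched on both strands for the X-box core AGCAAC and the Y-box core GATTGG, which do not overlap each other. On the strand of the gene, an X core followed within 10 to 30 bases by a Y core was found in H2-Eb1, H2-Oa and H2-Ob, and in 24 of all 32851 promoters (0.0731%), which belong to 19 genes, among them the class II chain gene H2-Eb2. On either strand, the X core was in 14.8% and the Y core in 16.1% of all promoters. The X core began 92 bases before the start in H2-Eb1, 77 in H2-Oa and 88 in H2-Ob, with 26, 27 and 24 bases between the cores. H2-Aa, H2-DMb1 and H2-DMb2 held the Y core only, and of the pair of starts listed for H2-DMa neither held both cores. The windows below run from 44 bases before the Y core to 10 after it, 5′ to 3′ on the strand of the gene, with the cores in capitals, so that the stretches can be read against each other.
H2-Eb1 (chr17:34305763-34305822, plus strand): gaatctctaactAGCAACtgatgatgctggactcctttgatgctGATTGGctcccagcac
H2-Oa (chr17:34092291-34092350, plus strand): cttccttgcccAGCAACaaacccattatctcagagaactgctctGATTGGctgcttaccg
H2-Ob (chr17:34238803-34238862, plus strand): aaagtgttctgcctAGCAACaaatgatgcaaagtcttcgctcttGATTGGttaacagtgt
H2-Aa (chr17:34287857-34287916, minus strand): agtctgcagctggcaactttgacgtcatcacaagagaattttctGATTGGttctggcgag
H2-DMb1 (chr17:34153085-34153144, plus strand): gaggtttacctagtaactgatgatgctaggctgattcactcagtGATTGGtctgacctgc
H2-DMb2 (chr17:34145114-34145173, plus strand): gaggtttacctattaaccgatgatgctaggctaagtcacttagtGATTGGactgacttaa
The windows of the near copies H2-DMb1 and H2-DMb2 shared 51 of 60 bases position by position. A match in letters is a description and shows no binding, and a missing match says only that these letters are not in the window.

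Expression of the MHC class II genes was lower in knockout-labelled GMPs in nearly every member. Of the 10 members 9 were called lower and 0 higher, where 15.0% of the 14391 genes tested were called lower and 11.8% higher (limma on log2 values, Benjamini-Hochberg adjusted p of 0.05 over all genes). Leaving out Ciita, which passed the filter only through the control libraries, the count was 8 of 9. The member not called was H2-DMb2. In 9 members every knockout-labelled library lay below every control library, as it did for 22.5% of all genes tested, and 0 members had every knockout-labelled library above, against 20.4% of all genes. On whole reads, recovered by undoing the size factors, 8 members were called lower both in edgeR, which called 14.4% of all genes lower and 11.7% higher, and in DESeq2 (15.9% lower and 13.9% higher). The median log2 fold change of the members was -2.54, against 0.01 over all genes. Summed over the members, the normalized counts were 3608, 6386 and 2210 in knockout-labelled libraries, against 17731, 13088 and 28945 in control libraries. In bulk samples fewer cells of a type and less RNA per cell cannot be told apart.

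**Figure D1:**
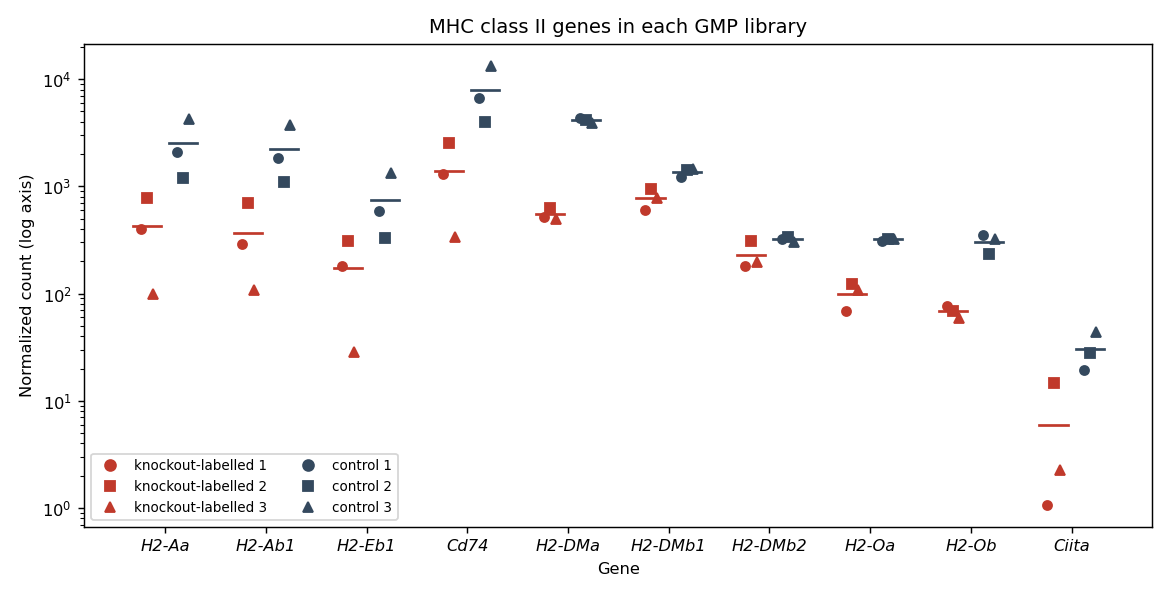
Normalized counts (log axis) of the 10 MHC class II genes in each library, knockout-labelled in red and control in dark blue; symbols mark the replicate and horizontal lines the group mean. The groups overlap in H2-DMb2 alone, and the replicates lie far apart in H2-Aa, H2-Ab1, H2-Eb1 and Cd74 but close together in H2-DMa.

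The classical chain H2-Aa, the alpha chain of the I-A molecule, had 397.9, 775.7 and 98.2 normalized counts in knockout-labelled libraries, against 2096, 1202 and 4279 in control libraries. Its means were 423.9 ± 339.5 in knockout-labelled and 2526 ± 1583 in control libraries (SD, n = 3 each), and the log2 fold change was -2.82 (SE 0.61, limma adjusted p = 0.00603). Its partner H2-Ab1, the beta chain of I-A, had 290.1, 695.5 and 107.3 in knockout-labelled libraries, against 1851, 1098 and 3707 in control libraries (log2 fold change -2.81, SE 0.56, limma adjusted p = 0.00371). In both chains knockout replicate 2 and control replicate 3 were the highest of their groups, and the groups did not overlap.

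H2-Eb1, the beta chain of the I-E molecule, had 180.3, 311.3 and 28.5 normalized counts in knockout-labelled libraries, against 583.7, 332.5 and 1322 in control libraries. Knockout replicate 2 and control replicate 2 lay close together, so the groups were barely apart, and the log2 fold change was -2.42 (SE 0.72, limma adjusted p = 0.0271). H2-Eb1 was no longer called when control replicate 1 (adjusted p = 0.0506) or 3 (0.105) was left out, nor in DESeq2 on the recovered reads (0.0951). The alpha chain pseudogene H2-Ea-ps was read in 0 libraries, and H2-Eb2, a beta chain gene of the same family, had 1 read in a single knockout-labelled library.

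Cd74, the invariant chain, had 1300, 2521 and 335.7 normalized counts in knockout-labelled libraries, against 6617, 3994 and 13287 in control libraries. The means were 1386 ± 1095 in knockout-labelled and 7966 ± 4791 in control libraries (SD, n = 3 each), and the log2 fold change was -2.77 (SE 0.59, limma adjusted p = 0.00541). The size of the difference in these 4 genes depended on which knockout replicate was in the fit. Without knockout replicate 3, the lowest, the log2 fold changes were -1.99 for H2-Aa, -2.12 for H2-Ab1, -1.96 for Cd74 and -1.42 for H2-Eb1. Without knockout replicate 2, the highest, they were -3.47 for H2-Aa, -3.47 for H2-Ab1, -3.41 for Cd74 and -3.12 for H2-Eb1, and all 4 calls stood in both fits.

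The classical chains and Cd74 moved together from library to library. Cd74 over H2-Aa was 3.27, 3.25 and 3.42 in knockout-labelled libraries and 3.16, 3.32 and 3.11 in control libraries, while H2-Aa itself spanned 7.90-fold among the first and 3.56-fold among the second. H2-Ab1 over H2-Aa was 0.729, 0.897 and 1.09 in knockout-labelled libraries and 0.883, 0.913 and 0.866 in control libraries. H2-Eb1 over H2-Aa was 0.453, 0.401 and 0.291 in knockout-labelled libraries and 0.279, 0.277 and 0.309 in control libraries. In each of these ratios the groups overlapped, and the exact permutation p was 0.3, 0.9 and 0.2 (2-sided; 3 libraries against 3 cannot go below 0.1). The spread around the group means was large for these genes: their residual SD on the log2 scale was 1.25 for H2-Aa, 1.14 for H2-Ab1, 1.44 for H2-Eb1 and 1.21 for Cd74, at the 95.5 to 97.8 percentile of all genes tested.

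**Figure D2:**
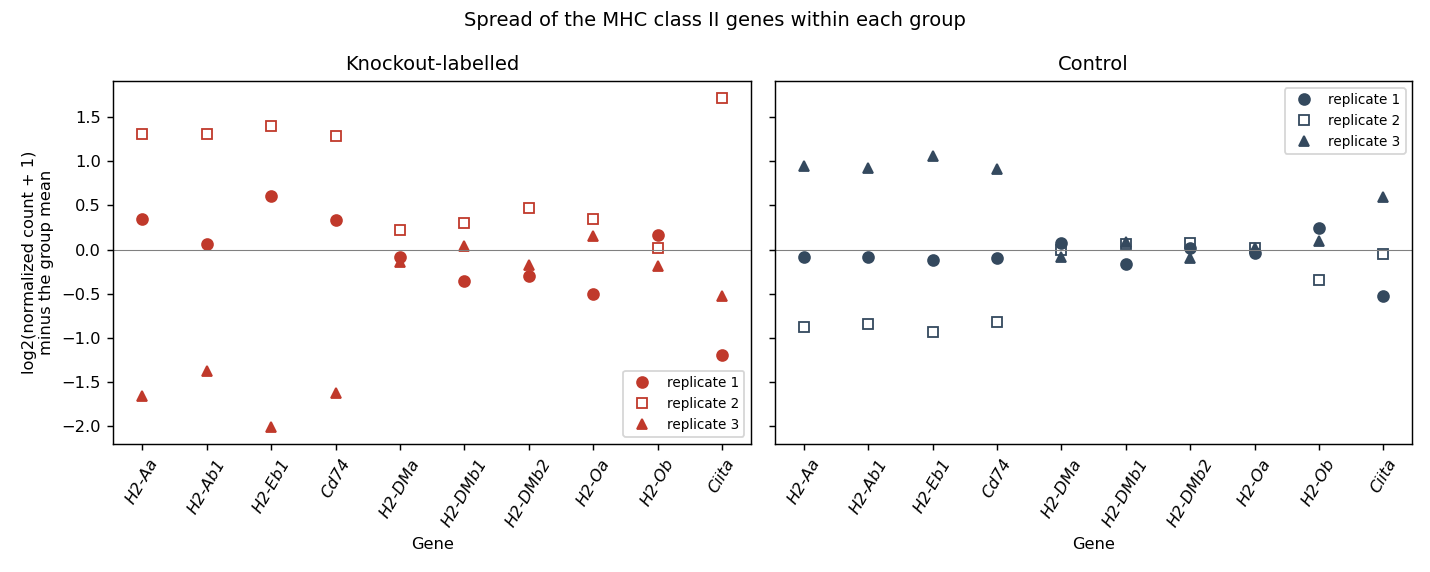
Deviation of log2(normalized count + 1) from the group mean for each of the 10 genes, in knockout-labelled (left) and control libraries (right); symbols mark the replicate. H2-Aa, H2-Ab1, H2-Eb1 and Cd74 share an order, with knockout replicate 2 and control replicate 3 on top, and spread more widely than the H2-DM and H2-O chains.

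The peptide-loading chain H2-DMa fell with little spread. It had 516.3, 633 and 493.3 normalized counts in knockout-labelled libraries, against 4364, 4125 and 3918 in control libraries, with means of 547.5 ± 74.9 in knockout-labelled and 4136 ± 223.6 in control libraries (SD, n = 3 each). The groups were far apart, and H2-DMa was 7.58-fold lower (log2 fold change -2.92, SE 0.13, limma adjusted p = 2.29e-07), with values from -3.03 to -2.85 in all alternatives tried. Its residual SD of 0.15 lay at the 19.6 percentile of all genes.

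The beta chains of H2-DM, with which H2-DMa pairs, had smaller fold changes. H2-DMb1 had 596.3, 936 and 779.9 normalized counts in knockout-labelled libraries, against 1213, 1413 and 1445 in control libraries, and was 1.78-fold lower (log2 fold change -0.84, SE 0.17, limma adjusted p = 0.00447). H2-DMb2 had 180.3, 307.1 and 197.6 in knockout-labelled libraries, against 324.3, 335.4 and 301.3 in control libraries. Knockout replicate 2 lay within the control range, and the log2 fold change of H2-DMb2 was -0.53 (SE 0.23, limma adjusted p = 0.113), or -0.76 and past the threshold without that library (0.0266). H2-DMb1 and H2-DMb2 are close copies, and reads that aligned to several places were not given to genes, so their counts are uncertain.

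H2-DMa over H2-DMb1 was 0.866, 0.676 and 0.633 in knockout-labelled libraries, against 3.60, 2.92 and 2.71 in control libraries. The ratio was thus below 1 in every knockout-labelled library and above 2 in every control library. Of 7 ratios between members this was the only one whose groups did not overlap; its exact permutation p was 0.1, the smallest this design can give, and 0.42 after Benjamini-Hochberg adjustment over the 7. H2-DMb1 over H2-DMb2 was 3.31, 3.05 and 3.95 in knockout-labelled libraries and 3.74, 4.21 and 4.80 in control libraries, with overlap (exact permutation p = 0.2). H2-DMa over H2-Aa was 1.30, 0.816 and 5.02 in knockout-labelled libraries and 2.08, 3.43 and 0.916 in control libraries, with overlap (exact permutation p = 0.9).

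**Figure D3:**
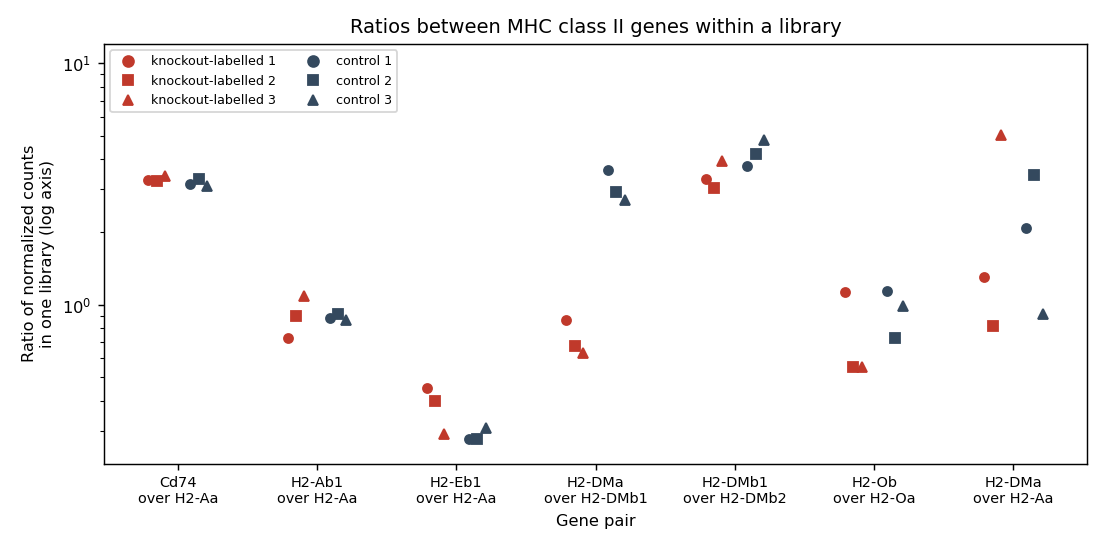
Ratio of the normalized counts of 7 pairs of MHC class II genes within each library (log axis), knockout-labelled in red and control in dark blue, with symbols for the replicate. The groups are apart in H2-DMa over H2-DMb1 alone, and Cd74 over H2-Aa stays between 3.11 and 3.42 in all 6 libraries.

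The H2-O chains, which form the inhibitor of H2-DM in B cells and some dendritic cells, were both lower. H2-Oa had 68.3, 123.9 and 107.3 normalized counts in knockout-labelled libraries, against 310.1, 324.9 and 323.6 in control libraries (log2 fold change -1.71, SE 0.26, limma adjusted p = 0.000703). H2-Ob had 76.8, 68.7 and 59.4 in knockout-labelled libraries, against 352.7, 236 and 320 in control libraries (log2 fold change -2.12, SE 0.26, limma adjusted p = 0.000163). The groups did not overlap in either chain, and both calls stood in all 15 alternatives. H2-Ob over H2-Oa was 1.13, 0.555 and 0.553 in knockout-labelled libraries and 1.14, 0.726 and 0.989 in control libraries, with overlap.

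Ciita, the class II transactivator, was the rarest member. It had 1.07, 14.6 and 2.28 normalized counts in knockout-labelled libraries, which are 1, 14 and 2 reads, against 19.5, 27.7 and 43.7 in control libraries. Knockout replicate 2, which was also highest in the classical chains, came close to control replicate 1. The log2 fold change was -2.65 (SE 0.81, limma adjusted p = 0.0316). The call was lost without knockout replicate 1 (adjusted p = 0.0768) or 3 (0.0714), without control replicate 1 (0.0519), 2 (0.0894) or 3 (0.126), and in edgeR on the recovered reads (0.0611). The log2 fold change was -2.06 without knockout replicate 1 and -3.51 without knockout replicate 2.

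Per kilobase of exon, the order of the members differed between the groups. In knockout-labelled libraries Cd74 stood at 825.2 normalized counts per kb on average, followed by H2-DMb1 (458.5), H2-DMa (158.8), H2-Ab1 (141.9), H2-DMb2 (130.7), H2-Aa (111.6), H2-Eb1 (89.2), H2-Oa (71.0), H2-Ob (12.7) and Ciita (0.627). In control libraries Cd74 stood at 4744 per kb, followed by H2-DMa (1199), H2-Ab1 (863.9), H2-DMb1 (807.2), H2-Aa (665), H2-Eb1 (383.8), H2-Oa (227.1), H2-DMb2 (183.4), H2-Ob (56.3) and Ciita (3.18). In knockout-labelled libraries Cd74 and H2-DMb1 overlapped, as did the neighbours from H2-DMa down to H2-Oa, while H2-DMb1 lay above H2-DMa, and H2-Ob and Ciita each lay apart. Over control libraries the neighbours from H2-DMa down to H2-Oa overlapped, while Cd74 lay above them all. H2-DMb2 lay below its neighbour H2-Oa but within the range of H2-Eb1, and H2-Ob and Ciita each lay below all the members before them. Lengths are of all annotated exons of a gene, which takes in exons that may not be used here and lowers the value of a gene with many of them.

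Among the other genes of the pathway, taken from 5 lists of textbook members, 15 of 30 tested were called lower and 1 higher. For these counts and those of each list below, the shares over all genes tested were 15.0% lower and 11.8% higher. Of the 7 factors that bind class II promoters, 1 was called. Nfya, a subunit of the Y-box factor NF-Y, was called lower, with 177.1, 145.8 and 158.7 normalized counts in knockout-labelled libraries, against 325.2, 383.2 and 334.3 in control libraries (log2 fold change -1.11, SE 0.20, limma adjusted p = 0.00201). Among the other NF-Y subunits, Nfyb was at 2411 ± 239 in knockout-labelled and 2400 ± 224.1 in control libraries, and Nfyc was at 742 ± 139.5 in knockout-labelled and 691.5 ± 104.2 in control libraries (SD, n = 3 each). Rfxank, a subunit of the X-box factor RFX, was at 2065 ± 279.7 and 1688 ± 159.2 in knockout-labelled and control libraries (log2 fold change 0.29, SE 0.14, limma adjusted p = 0.143). Creb1, which binds beside RFX, gave no call (log2 fold change -0.10, SE 0.13, limma adjusted p = 0.598).

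Upstream of Ciita, 8 of 10 listed genes could be tested, of which 6 were called lower and 1 higher. Irf8, a transcription factor of monocytes, dendritic cells and B cells, had 1239, 2361 and 586.9 normalized counts in knockout-labelled libraries, against 6208, 5915 and 5677 in control libraries (log2 fold change -2.31, SE 0.36, limma adjusted p = 0.000833). Its knockout-labelled libraries stood in the order of H2-Aa, with replicate 2 highest and replicate 3 lowest, but its control libraries did not: replicate 3 was the lowest for Irf8 and the highest for H2-Aa. The interferon gamma pathway, which induces Ciita, held genes called in both directions. Its receptor chain Ifngr1 rose to 40518, 39506 and 35744 in knockout-labelled libraries, against 17641, 18554 and 19424 in control libraries (log2 fold change 1.06, SE 0.11, limma adjusted p = 6.69e-05).

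The other receptor chain Ifngr2 was lower (log2 fold change -0.74, SE 0.14, limma adjusted p = 0.00238), as was Jak1, a kinase of the receptor (-0.56, SE 0.11, 0.00445). Irf1, an interferon-induced factor that binds a Ciita promoter, was at 1055 ± 253.2 in knockout-labelled and 1798 ± 15.8 in control libraries (SD, n = 3 each; log2 fold change -0.80, limma adjusted p = 0.00522). Jak2 passed narrowly (log2 fold change -0.80, limma adjusted p = 0.0490) and was lost in 9 alternatives, among them without knockout replicate 2 (0.0694) or 3 (0.125) and without control replicate 1 (0.116), 2 (0.168) or 3 (0.063). Spi1, the myeloid factor PU.1, was at 3992 ± 1257 in knockout-labelled and 3076 ± 86.8 in control libraries (SD, n = 3 each; limma adjusted p = 0.206, and 0.031 without knockout replicate 3). Irf4, a relative of Irf8, was read in control replicate 2 alone, at 10.5, and Prdm1, a repressor of Ciita, in 0 libraries.

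The endosomal proteins that cut antigen and the invariant chain divided into those that fell and those that did not pass. Ctss, the cathepsin S that takes the last step of invariant chain removal, had 277.3, 233.2 and 91.4 normalized counts in knockout-labelled libraries, against 1902, 2130 and 1931 in control libraries, and was 10.9-fold lower (log2 fold change -3.45, SE 0.32, limma adjusted p = 3.30e-05). Lgmn, the endoprotease legumain, was lower as well (log2 fold change -2.67, SE 0.66, limma adjusted p = 0.0116), with a log2 value of -1.79 without knockout replicate 1 and -3.49 without knockout replicate 3. Cst3, the cathepsin inhibitor cystatin C, was at 6698 ± 1023 and 10622 ± 879.4 in knockout-labelled and control libraries (SD, n = 3 each; limma adjusted p = 0.00304).

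Ctsh was called lower as well (log2 fold change -1.11, SE 0.28, limma adjusted p = 0.0143; 0.0582 in DESeq2). Ifi30, the thiol reductase GILT, was lower (log2 fold change -1.12, SE 0.37, limma adjusted p = 0.0411), a call lost in 8 alternatives, among them without knockout replicate 1 (0.0588) or 3 (0.0686) and without control replicate 1 (0.0775), 2 (0.119) or 3 (0.0896). The other listed cathepsins gave no call: the log2 fold change was 0.25 for Ctsb (limma adjusted p = 0.181, but 0.0207 without knockout replicate 3), -0.07 for Ctsd (0.689), 0.07 for Ctsz (0.736) and 0.25 for Ctsl (0.27).

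Of 8 genes of class II turnover and costimulation, 6 could be tested and 3 were called lower. Cd86, a costimulatory ligand of CD28, had 7.47, 11.5 and 11.4 normalized counts in knockout-labelled libraries, against 138.6, 111.8 and 171.1 in control libraries (log2 fold change -3.67, SE 0.40, limma adjusted p = 7.97e-05). Cd274, the inhibitory ligand PD-L1, had 14.9, 6.25 and 14.8 in knockout-labelled libraries, against 48.0, 70.7 and 77.5 in control libraries (log2 fold change -2.41, SE 0.49, limma adjusted p = 0.00414). Cd83, which slows class II turnover, was at 4.27, 19.8 and 0 in knockout-labelled libraries, against 62.2, 87.9 and 70.4 in control libraries; it passed the filter only through the control libraries, and its fitted change on the log2 scale, -3.95 (SE 0.90, limma adjusted p = 0.00758), was -2.82 without knockout replicate 3 and -5.01 without knockout replicate 2. The ubiquitin ligase gene March1, which sends class II to degradation, was at 37.4 ± 12.7 and 72.3 ± 10.5 in knockout-labelled and control libraries (SD, n = 3 each; limma adjusted p = 0.0798). March8, a related ligase gene, was at 108.9 ± 26.9 in knockout-labelled and 117.2 ± 37.9 in control libraries (0.892), and Icosl, the ligand of the costimulator ICOS, at 82.6 ± 20.7 in knockout-labelled and 127.2 ± 67.6 in control libraries (0.47). Under the filter, Cd40 had 0 reads in knockout-labelled libraries and 3.55, 10.5 and 31.2 normalized counts in control libraries.

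**Figure D4:**
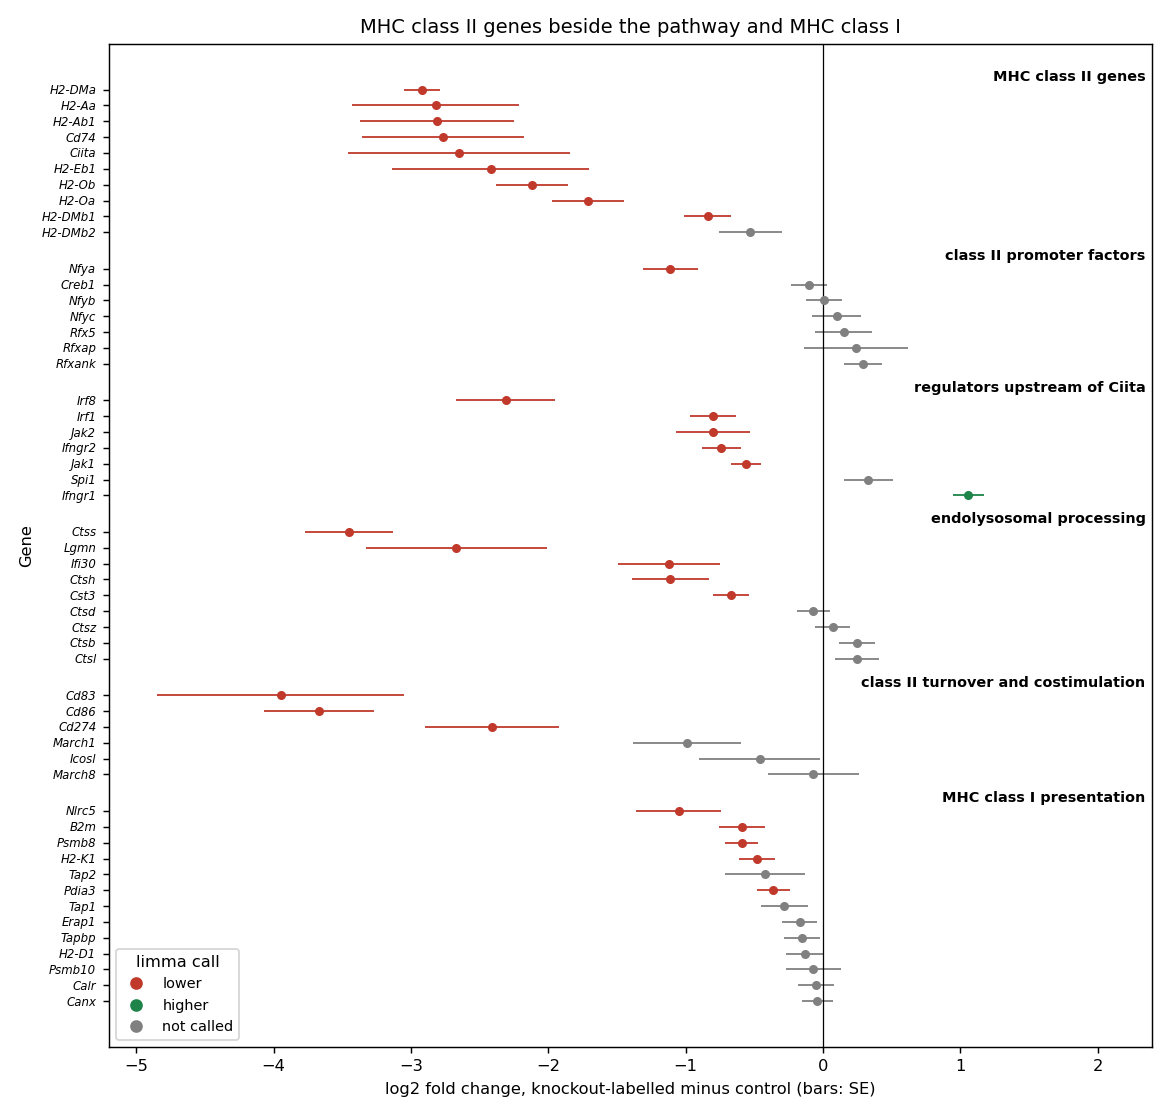
log2 fold changes (knockout-labelled minus control, bars SE) of the tested MHC class II genes and of the genes reported from 5 other lists, coloured by the limma call. Most class II genes lie between -3 and -1.5, the promoter factors other than Nfya near 0, and the class I genes between -1.05 and -0.04.

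MHC class I presentation, the route for peptides made inside the cell, was set beside class II. Of 13 class I genes tested 5 were called lower and 0 higher, with a median log2 fold change of -0.28, against 9 of 10 and -2.54 for class II. Over all genes tested 15.0% were called lower and 11.8% higher. Nlrc5, the relative of Ciita that drives class I genes, had 97.1, 83.3 and 48.0 normalized counts in knockout-labelled libraries, against 142.2, 166.3 and 149.7 in control libraries (log2 fold change -1.05, SE 0.31, limma adjusted p = 0.0273). That call was lost without knockout replicate 3 (0.0632), without control replicate 1 (0.0602), 2 (0.0982) or 3 (0.0766), and under quantile normalization (0.0554). The immunoproteasome subunit gene Psmb8 was at 10651 ± 1578 in knockout-labelled and 15920 ± 631.3 in control libraries (SD, n = 3 each; limma adjusted p = 0.00484). B2m, the light chain of class I, was 1.51-fold lower (0.0239), a call lost without control replicate 1 (0.0899), 2 (0.0734) or 3 (0.0704), and H2-K1, a class I heavy chain, was 1.40-fold lower (0.0165), a call lost without control replicate 1 (0.0708) or 2 (0.0734). Pdia3, a chaperone of class I loading, was 1.28-fold lower (0.0465) and was lost without control replicate 1 (0.145), 2 (0.128) or 3 (0.192), with the replicate block (0.102) and with no filter beyond 1 read (0.0905).

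Markers of other cells that carry class II were counted beside it, where 15.0% of all genes tested were called lower and 11.8% higher. Of 20 dendritic cell markers 19 were tested, of which 10 were called lower and 3 higher; their summed level ran from 5784 to 7215 normalized counts in knockout-labelled libraries and from 6528 to 7414 in control libraries, so the summed levels overlapped, and none was at 0 in a whole group. In knockout-labelled libraries most of this sum came from Id2 and Sirpa, both called higher. Id2, named for its share of the sum, averaged 2636 in knockout-labelled and 1448 in control libraries (limma adjusted p = 0.0306). The summed level therefore says little about the other dendritic cell markers. Of the 19, 5 passed the filter only through the control libraries. With both group means over the filter, 7 of 14 were called lower and 3 higher. Tcf4, the regulator of plasmacytoid dendritic cells, was at 147.5 ± 46.0 in knockout-labelled and 1079 ± 70.3 in control libraries (SD, n = 3 each; limma adjusted p = 7.95e-06), and Bst2, a surface protein of the same cells, was 4.11-fold lower (6.64e-05). Clec10a, a lectin of dendritic cells and macrophages, was 5.17-fold lower (0.00104) and Naaa, an acid amidase, 2.70-fold lower (0.000354). Sirpa, a receptor of dendritic cells and other myeloid cells, rose to 1823 ± 152.7 in knockout-labelled libraries, against 1112 ± 57.6 in control libraries (0.00183).

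Of 19 B lymphoid markers 13 were tested and 12 called lower, but 9 of the 13 passed the filter only through the control libraries. With both group means over the filter, 3 of 4 were called lower. The shares over all genes tested were again 15.0% lower and 11.8% higher. The summed level of the 19 markers was 1507 to 1704 in knockout-labelled libraries and 2973 to 3474 in control libraries. In knockout-labelled libraries Pax5, Vpreb3, Cd22, Fcmr and Rag1 were at 0. Pax5, Fcmr and Rag1 were under the filter and low in control libraries too. Their control reads were 7, 4 and 6 for Pax5, 3, 22 and 22 for Fcmr, and 2, 0 and 4 for Rag1. Vpreb3 had 81, 81 and 51 control reads, and Cd22 had 47, 47 and 36. Cd79a, of the B cell receptor, had 7.47, 4.16 and 9.14 normalized counts in knockout-labelled libraries, against 162.6, 152.9 and 173.8 in control libraries. Of 15 monocyte and macrophage markers 14 were tested, of which 11 were called lower and 1 higher, with sums of 55735 to 109354 and 85632 to 96285 in knockout-labelled and control libraries, which overlapped; 2 of the 14 passed the filter only through control and 1 only through knockout-labelled libraries, and none was at 0 in a whole group. With both group means over the filter, 9 of 11 monocyte and macrophage markers were called lower and 1 higher. Most of each of these monocyte sums came from Ly6c2, at 87914, 98227 and 46716 in knockout-labelled libraries and 57137, 66624 and 60557 in control libraries. Ly6c2, named for its share of the sums, was not called (limma adjusted p = 0.418, but 0.00232 without knockout replicate 3). The sums therefore say little about the other monocyte markers. Csf1r, the receptor of the macrophage growth factor, had 431, 723.6 and 237.5 normalized counts in knockout-labelled libraries, against 2427, 2263 and 2121 in control libraries, and was 5.39-fold lower (limma adjusted p = 0.000199). Cx3cr1, a chemokine receptor of monocytes, was 25.8-fold lower (2.88e-05), F13a1, the clotting factor subunit of monocytes, 5.74-fold lower (1.46e-07) and Adgre1, the F4/80 antigen, 4.14-fold lower (5.86e-05), while Cd68, a lysosomal protein of macrophages, was 2.29-fold higher (4.67e-05). The part of these cells in the class II values was not tested.

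The markers also differed in how they varied among the control libraries, where H2-Aa stood at 2096, 1202 and 4279. The following genes were chosen after their values were seen. Xcr1 and Clec9a, receptors of the cross-presenting dendritic cell subset, were highest in control replicate 3 as H2-Aa was: Xcr1 had 5.33, 33.3 and 7.99 normalized counts in knockout-labelled libraries and 71.1, 39.2 and 121.2 in control libraries, and Clec9a had 0, 18.7 and 2.28 in knockout-labelled libraries and 18.7, 12.4 and 105.2 in control libraries. In both groups of both genes the highest library was that of H2-Aa. The same held for the plasmacytoid gene Siglech, at 9.6, 21.9 and 0 in knockout-labelled libraries and 43.5, 76.4 and 94.5 in control libraries. Clec9a rests on 0, 18 and 2 reads in knockout-labelled libraries and passed the filter only through control libraries. It was not called (limma adjusted p = 0.0697). Naaa showed the full order of H2-Aa, at 275.2, 318.6 and 238.7 in knockout-labelled libraries and 666.4, 664.1 and 935 in control libraries. Sirpa and Cadm1 were also highest in the libraries of H2-Aa in both groups. Zbtb46 and Batf3 were highest in control replicate 3, but in knockout replicates 3 and 1. Bst2 and Clec10a were not highest in control replicate 3. Nor were Flt3, Itgax, Tcf4, Ly6d, Ccr9, Id2, Ccr7, Runx2 and Spib. The share of all genes with these highest libraries was not counted. A difference between dendritic cell subsets was not tested. Cd209a, a lectin of monocyte-derived and conventional dendritic cells, was at 46.9, 15.6 and 1.14 in knockout-labelled libraries and at 48.9, 27.7 and 142.6 in control libraries, the order of H2-Aa in control libraries alone. The plasmacytoid gene Tcf4 (1160, 1035 and 1043 in control libraries) did not show the order of H2-Aa. The B cell gene Cd79a showed it in control libraries alone and within a narrow range, 162.6, 152.9 and 173.8. In knockout-labelled libraries Cd79a was at 7.47, 4.16 and 9.14, with replicate 3 highest and replicate 2 lowest. Cd79a passed the filter only through the control libraries.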

How the data were processed

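Total RNA of sorted GMPs went through low-input SMARTer amplification and Ion Torrent whole-transcriptome preparation, per the labels' protocols, so that reads are PCR copies with no molecular identifiers. Named without roles in the submitters' processing notes are the tools Picard, STAR, HTSeq, DESeq2 and BWA 0.7.5a and the builds mm9 and NCBIM37; the sources used here do not give the strand setting. The deposited values are a signal: gene counts that the authors scaled by 1 size factor for each library. Dividing each column by its smallest value gave whole reads for 100% of values (tolerance 0.01 of a read). Reads aligned to several places, 26.8 to 28.8% of those listed, stayed out of all sums and tests with the other rows that name no gene; 22.9 to 25.2% of listed reads were in genes.

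The main test was limma 3.58.1 in R 4.3.3, with its trend option, on log2(value + 1). It was 2-sided and adjusted over all 14391 genes whose mean was 10 or more. The scale understates changes of low genes. On the recovered reads, edgeR 4.0.16 called 1686 genes higher and 2067 lower, and DESeq2 1.42.0 called 1999 and 2283. Symbols and exon lengths came from GENCODE M21 (GRCm38, another build) and promoters from RefSeq. Members and gene lists were chosen with earlier results of these data known. The text names all members, every pathway gene called, up to 4 not called per list by mean level, and up to 5 genes per class I or marker list by adjusted p, except where stated; 2 listed genes are counted but not reported here.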

Additional observations from a re-analysis of the deposited data

How the results depend on the processing

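Of 149 member values recomputed under 15 alternatives, 139 kept their call, 9 lost it (H2-Eb1 and Ciita), 1 gained it (H2-DMb2) and 0 changed direction. Members called lower numbered 8 in edgeR, in DESeq2 and with a mean value of at least 50, which leaves Ciita untested, and 9 with each other pseudocount, filter and scaling. Leaving out each library in turn gave 7 to 10 members lower and 0 higher, 13 to 14 pathway genes lower and 1 to 3 higher, and 1413 to 2354 of all genes lower and 1058 to 1796 higher. The 3 higher pathway genes were seen without knockout replicate 3. Counts over all genes fell by over 1.5 times without control replicate 2 (1058 higher, 1422 lower) or 3 (1105 higher, 1413 lower). Same-numbered libraries did not deviate together (r across genes -0.104, 0.0417 and -0.058 for replicates 1, 2 and 3). This check cannot tell whether same-numbered libraries were matched, since a matched pair need not deviate together. The replicate block gave 9 members lower and, over all genes, 1550 higher and 2014 lower. Ciita rests on 1 to 14 reads in knockout-labelled libraries, which limits its fold change.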

Other observations

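The full order of libraries seen in H2-Aa was knockout replicate 2 above 1 above 3 and control replicate 3 above 1 above 2. It was found in 271 of 14391 genes tested (1.88%). Of these, 23 also spanned at least 2-fold, on values + 1, in both groups, the members H2-Aa, H2-Ab1, H2-Eb1 and Cd74 included. The order was taken from H2-Aa after it had been seen in these members, so their place among the 23 is no finding. Slamf7, a surface receptor of lymphocytes and myeloid cells, had 26.7, 31.2 and 3.43 normalized counts in knockout-labelled libraries and 98.6, 19.1 and 135.5 in control libraries. The interferon-inducible GTPase genes Iigp1 and Tgtp1 were among them too. Iigp1 had 34.1, 53.1 and 10.3 in knockout-labelled libraries and 41.8, 32.5 and 101.6 in control libraries (log2 fold change -0.93, limma adjusted p = 0.294). Tgtp1, which has a near copy and an uncertain count, had 25.6, 61.4 and 5.71 in knockout-labelled libraries and 38.2, 28.7 and 84.7 in control libraries (-1.05, 0.315). These genes were chosen after their values were seen.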
